A study of Rattus norvegicus with 6 samples.

Results

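The expression of 10 genes of the angiotensin, endothelin and natriuretic peptide systems was examined in primary fibroblasts of the neonatal rat heart (NRCFs). The genes were set by symbol, with earlier results of these data known, and were Agt, Agtr1a, Agtr2, Ace, Edn1, Ednra, Ednrb, Nppa, Nppb and Npr3. All 10 were among the 21857 symbols listed in each of the 6 libraries. The cells had received either an empty plasmid (Vector, with the genotype label WT) or a plasmid carrying the rat coding sequence of FTO, an enzyme that removes the N6-methyladenosine mark from RNA (genotype label FTO overexpression). Each group held 3 libraries, and nothing in the labels says whether these came from separate cultures or animals. If they did not, the p-values measure only the spread between libraries, which may be technical. The design text names Sprague-Dawley pups up to 3 days old, whereas the strain label reads Noway. The culture methods include a hypoxia chamber with no statement of whether the sequenced cells passed through it.

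Natriuretic peptides oppose angiotensin and endothelin in the heart and vessels. Angiotensin II is cut from angiotensinogen in steps, the last by angiotensin-converting enzyme, and endothelin-1 is released from its precursor by converting enzymes. Both act on receptors coupled to the G protein Gq, constrict vessels and drive fibroblasts to make matrix. Natriuretic peptides, made mostly by heart muscle cells under load, act through receptors that form cyclic GMP, and the receptor Npr3 takes them up for degradation.

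Libraries held 13178952 to 17857999 counted reads. Fto, the gene on the plasmid, was at 88.3 ± 1.20 normalized counts (CPM, scaled to library size) in the Vector group, against 92.3 ± 1.32 in the group labelled FTO (SD, n = 3 each). The log2 fold change of 0.06 (SE 0.0468) did not pass the edgeR quasi-likelihood test (adjusted p = 0.239). No rise was thus detected at the adjusted threshold of 0.05. The groups did not overlap, at 87.4 to 89.6 CPM in Vector and 90.8 to 93.2 CPM in the group labelled FTO. The study reports checks of FTO after transfection by qRT-PCR and western blot, which are not part of these counts. The second group is called the libraries labelled FTO throughout. All 10 fibroblast markers on the list used here were detected in both groups. So were all the cardiomyocyte, macrophage, mural and smooth muscle, and epicardial and mesothelial markers analysed here. Detection alone therefore does not tell the cell types apart.

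The systems did not move as a block. The ligand gene Edn1 fell 6.18-fold, whereas both endothelin receptor genes, the natriuretic peptide genes Nppa and Nppb, the clearance receptor gene Npr3, Agtr1a and Ace rose. The angiotensin precursor gene Agt was low and did not pass the test, and Agtr2 was close to absent. Of the 10 genes, 9 had enough counts to be tested, each with at least 18 counts in each of the 6 libraries. Of these 9, 8 passed edgeR at an adjusted p of 0.05, where 65.9% of all 12941 genes tested did. In this data set a call on its own is therefore common. In bulk RNA, more or fewer cells of a type and more or less RNA per cell cannot be told apart, which holds for each change below. By direction, 7 were higher and 1 lower, against 33.2% and 32.8% of all genes. At the threshold of the study, a log2 fold change of at least 1 in either direction with an unadjusted p-value under 0.05, 7 of the 9 passed, against 19.6% of all genes. No overlap in CPM between groups was seen in 9 of the 9, Agt included, against 70.3% of all genes. The median absolute log2 fold change was 1.66 for the 9 and 0.36 for all tested genes. Because the genes were set with earlier results of these data known, these comparisons with all genes do not measure an enrichment.

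**Figure D1:**
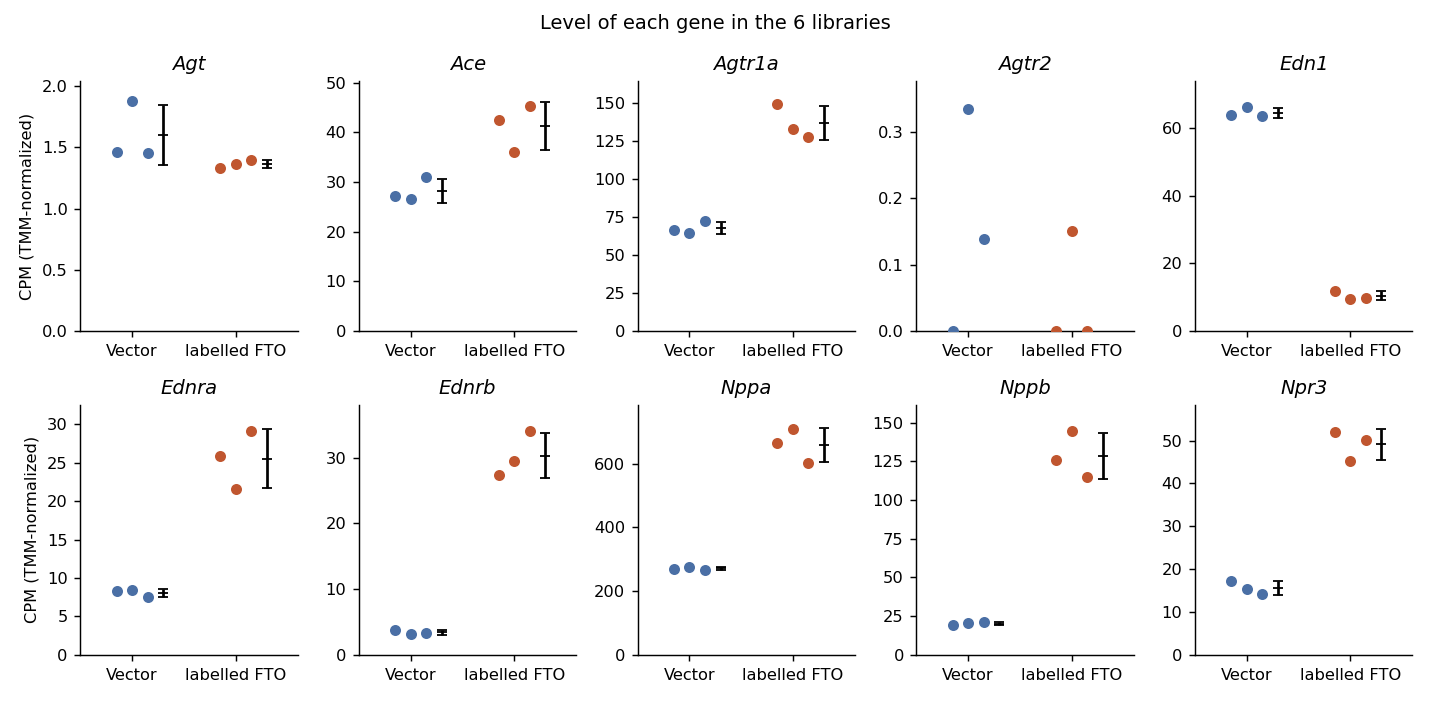
Level of each of the 10 genes (vertical axis, TMM-normalized CPM, starting at 0) in each library (points), with the mean and SD of 3 libraries beside them in black, except for Agtr2, which was under the count filter. The levels of Edn1 fall from 63.4 to 66.2 CPM in Vector to 9.52 to 11.99 CPM in the libraries labelled FTO, and the levels of Ednra, Ednrb, Nppa, Nppb, Npr3, Agtr1a and Ace lie higher there in each library.

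The angiotensin genes were taken first. Agt encodes angiotensinogen, the precursor of all angiotensin peptides. It had 20, 28 and 21 counts in Vector replicates 1, 2 and 3 and 19, 18 and 25 counts in the libraries labelled FTO. These values correspond to 1.46, 1.88 and 1.45 CPM and to 1.33, 1.36 and 1.40 CPM. Although the groups did not overlap, the log2 fold change of -0.23 had an SE of 0.260 and did not pass (edgeR adjusted p = 0.450). The 95% confidence interval of the fold change ran from 0.579 to 1.25, so changes within that range are not excluded.

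Ace encodes angiotensin-converting enzyme, which forms angiotensin II and also breaks down bradykinin. Its level was 27.3, 26.5 and 31.0 CPM in the Vector libraries and 42.6, 36.0 and 45.2 CPM in those labelled FTO. Each library labelled FTO was above each Vector library, with the smallest gap between Vector replicate 3 and FTO replicate 2. The rise was 1.47-fold (95% CI 1.28 to 1.67), or 0.55 on the log2 scale (SE 0.0891, edgeR adjusted p = 6.2e-05), and stayed under the 2-fold threshold of the study.

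Agtr1a encodes the type 1 receptor, which carries most known actions of angiotensin II on fibroblasts. Its levels were 66.9, 64.8 and 72.3 CPM in Vector and 150 (149.7), 133 and 128 CPM in the libraries labelled FTO. The groups were well apart, with the highest value in FTO replicate 1. Agtr1a doubled, by 2.01-fold (95% CI 1.83 to 2.21), or 1.01 on the log2 scale (SE 0.0635, edgeR adjusted p = 1.5e-09). It lies at the edge of the threshold of the study, and its log2 fold change was 0.93 without FTO replicate 1, 0.97 without Vector replicate 2 and 0.995 without Vector replicate 1. Agtr1b, the second type 1 receptor gene of rodents, had 0 counts in each of the 6 libraries. How reads shared by these similar genes were counted is not known, so the value of Agtr1a may include both. Agtr2, the type 2 receptor gene, had 0, 5 and 2 counts in Vector and 0, 2 and 0 counts in the libraries labelled FTO. No fold change is given for it, since a floor of 3 counts is worth 0.168 to 0.227 CPM and only Vector replicate 2 rose above it. Agtr1a was thus the only one of these 3 angiotensin receptor genes with more than 5 counts in any library.

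The other genes of the angiotensin system were counted from a list of 19. Of these, 11 could be tested, and each of the 11 passed an adjusted p of 0.05, 4 higher and 7 lower. Over all genes tested, 65.9% passed, 33.2% as higher and 32.8% as lower. The median log2 fold change was -0.14 against 0.00 for all genes. The largest differences were in peptidases of the cell surface. Mme, which encodes neprilysin, the enzyme that degrades natriuretic peptides and several other small peptides, rose from 39.4 ± 1.84 to 254 ± 36.8 CPM (log2 change 2.69, SE 0.0887). Enpep, which encodes aminopeptidase A, the enzyme that trims angiotensin II, rose from 13.4 ± 1.19 to 54.8 ± 4.13 CPM (log2 change 2.04, SE 0.0846). Agtrap, whose product binds the type 1 receptor and promotes its internalization, rose from 43.0 ± 3.02 to 74.8 ± 5.00 CPM (log2 change 0.80, SE 0.0675). By edgeR, the adjusted p was 5.2e-13, 9.3e-12 and 5.6e-08 in turn. The fourth higher gene was Nln (neurolysin), at 0.15. The log2 changes of the 7 lower genes ran from -0.51 for Anpep (aminopeptidase N) to -0.12 for Ctsa (cathepsin A), and included Prcp, at -0.40, whose product removes the last residue of angiotensin II. Mas1, which encodes a receptor for a vasodilator fragment of angiotensin, had 16, 12 and 8 counts in Vector and 4, 6 and 3 in the libraries labelled FTO, too few for the test. Mas1, Nln, Anpep, Ctsa and Prcp were picked out with their values known.

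**Figure D2:**
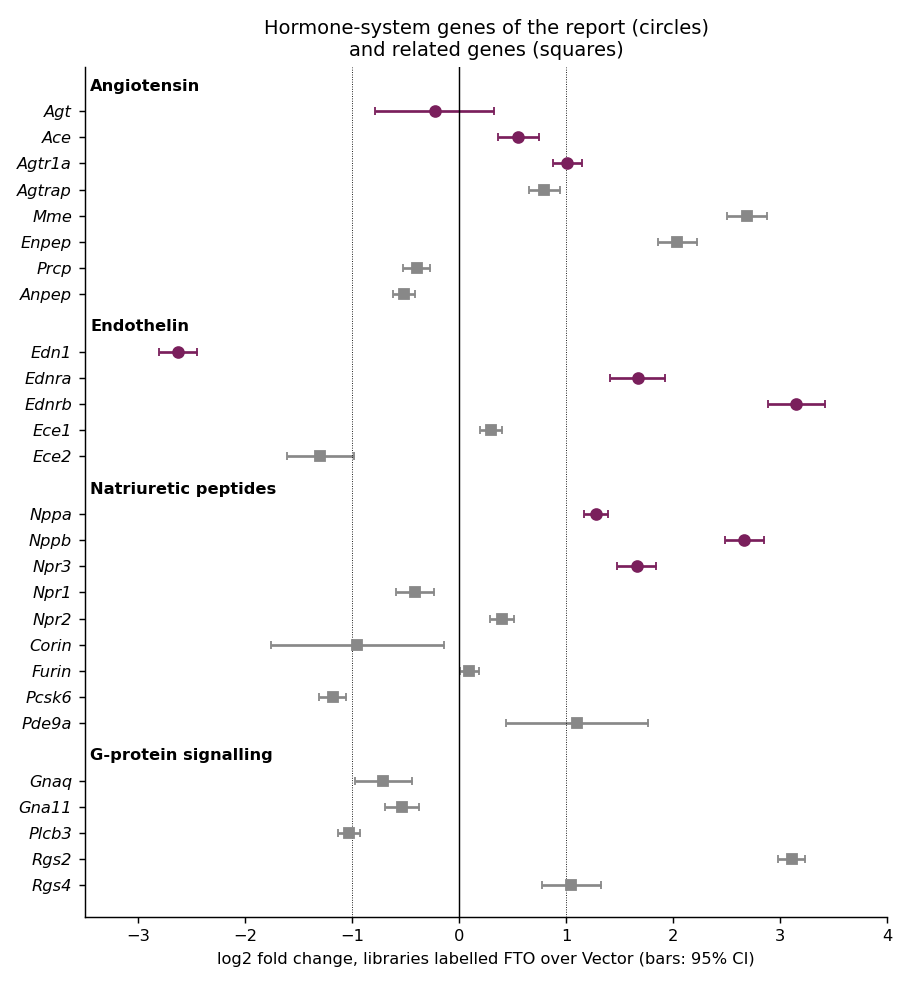
Fitted log2 fold change (horizontal axis) of 9 of the 10 genes (circles) and of related genes (squares), with 95% confidence intervals and dotted lines at a 2-fold change. Edn1, at -2.63, lies opposite to Ednrb, at 3.15, and Nppb, at 2.66. Prcp, Anpep, Npr2, Furin, Gnaq and Gna11 are shown for their role and were picked after their values were seen.

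The endothelin genes showed a ligand and its receptors moving apart. Edn1 encodes the precursor of endothelin-1. Its levels were 63.7, 66.2 and 63.4 CPM in Vector and 11.99, 9.52 and 9.83 CPM in the libraries labelled FTO, from 871 to 986 counts and from 126 to 176 counts. The Vector libraries differed little among themselves, with a coefficient of variation of 2.32%, and those labelled FTO differed more, at 12.9%. No library of either group came near the other group. Edn1 fell 6.18-fold (95% CI 5.47 to 6.98), or -2.63 on the log2 scale (SE 0.0824, edgeR adjusted p = 2.8e-13). It was the only one of the 9 tested genes that passed as lower.

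The promoter of Edn1 is shown because it is the ligand gene that fell, to be set beside those of Nppa and Nppb, the ligand genes that rose. Promoter sequences are those of RefSeq in the GRCr8 assembly, from 250 bases before to 50 bases after the annotated start, written 5′ to 3′ in the direction of the gene, whereas the submitters' processing notes name the build rn6 for the counts. Capitals mark GATAA (the core bound by GATA factors), TATAA (the letters of a TATA box, wherever they lie) and ACGTG (the core bound by hypoxia-inducible factors) or their reverse complements.
Edn1, chr17:22666638-22666937, minus strand: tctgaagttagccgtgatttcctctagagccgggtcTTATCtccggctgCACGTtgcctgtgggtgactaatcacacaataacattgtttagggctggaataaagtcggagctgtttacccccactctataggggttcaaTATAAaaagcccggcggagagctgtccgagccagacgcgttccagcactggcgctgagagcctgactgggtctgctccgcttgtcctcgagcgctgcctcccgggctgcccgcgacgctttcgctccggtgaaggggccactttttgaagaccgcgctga

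Ednra encodes the type A receptor, through which endothelin-1 constricts smooth muscle. It was at 8.34, 8.45 and 7.48 CPM in Vector and at 25.9, 21.6 and 29.2 CPM in the libraries labelled FTO. The rise was 3.17-fold (95% CI 2.66 to 3.79), or 1.67 on the log2 scale (SE 0.120, edgeR adjusted p = 7.6e-09). Ednrb encodes the type B receptor, which clears endothelin from the circulation and, on endothelium, triggers relaxation. It was low in Vector, at 3.80, 3.15 and 3.32 CPM from 52, 47 and 48 counts, against 27.4, 29.5 and 34.0 CPM in those labelled FTO. Both receptor genes were higher in each library labelled FTO than in any Vector library. Ednrb rose 8.88-fold (95% CI 7.37 to 10.7), the largest change among the 9 tested genes, or 3.15 on the log2 scale (SE 0.125, edgeR adjusted p = 5.5e-12).

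Because each library measures both receptors, their ratio does not depend on the scaling of the library. The count ratio of Ednrb to Ednra was 0.456, 0.373 and 0.444 in Vector and 1.06, 1.37 and 1.17 in the libraries labelled FTO. The ratio rose 2.82-fold, by 1.49 ± 0.158 (SD in Vector) and ± 0.186 (SD in the libraries labelled FTO) on the log2 scale. The groups did not overlap, and the two-sided exact permutation test gave p = 0.10, the smallest p that 3 libraries against 3 allow. Counts are not per transcript length, so a ratio above 1 does not show that more Ednrb than Ednra mRNA was present, and only the difference between groups can be read. The count ratio of Edn1 to Ednrb fell from 16.8, 21.0 and 19.1 to 0.437, 0.322 and 0.289, a 54.8-fold difference. Edn1 was lower and Ednrb higher in each library labelled FTO, so the separation of this ratio was fixed by those changes. Its exact permutation p of 0.10 is thus not a further result. Over the 6 ratios computed, 5 reached that smallest p, and their adjusted p was 0.12. These 5 include Edn1 to Ednra, at 7.64 to 8.48 in Vector and 0.337 to 0.463 in the libraries labelled FTO. Its separation was likewise fixed by the fall of Edn1 and the rise of Ednra.

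**Figure D3:**
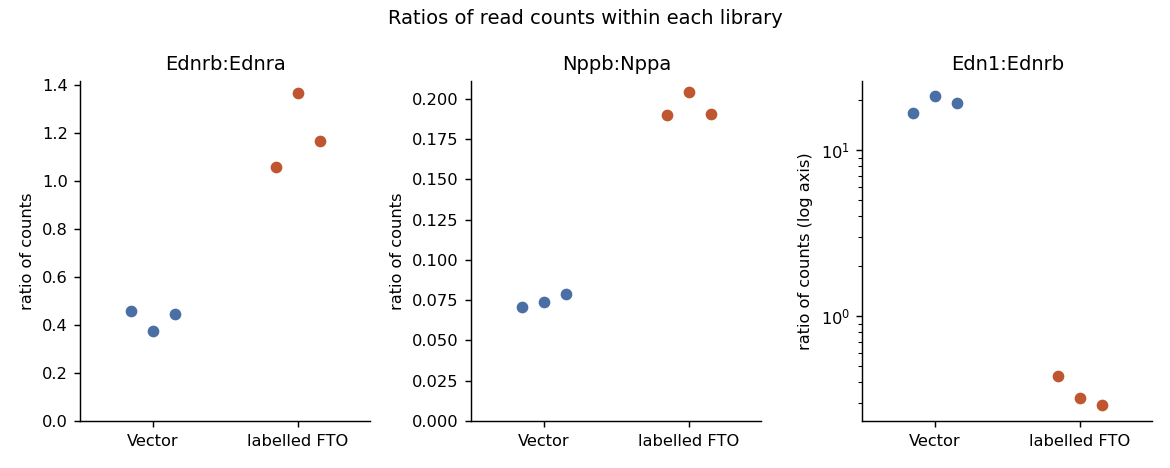
Ratio of read counts of gene pairs within each library (points), on linear axes from 0 for Ednrb to Ednra and Nppb to Nppa and on a log axis for Edn1 to Ednrb. Each of the 3 ratios separates the groups, with Ednrb to Ednra at 0.373 to 0.456 in Vector and 1.06 to 1.37 in the libraries labelled FTO. For Edn1 to Ednrb this follows from the fall of Edn1 and the rise of Ednrb.

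Of 6 other endothelin genes, 2 could be tested and both passed, where 65.9% of all genes did. Ece1 and Ece2 encode endothelin-converting enzymes. Ece1 was at 209 ± 1.53 CPM in Vector and 257 ± 16.7 CPM in the libraries labelled FTO, a log2 fold change of 0.30 (SE 0.0485). Ece2 fell from 10.4 ± 1.08 to 4.24 ± 0.592 CPM (log2 change -1.30, SE 0.146). By edgeR, the adjusted p was 6.1e-05 for Ece1 and 1.4e-06 for Ece2. Among the other endothelin ligand genes, Edn3 had 0 counts in each library and Edn2 had 1 count in a single Vector library. Edn1 was thus the only endothelin ligand gene with more than 1 count in these cells. Edn2 and Edn3 were picked out with their values known.

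The natriuretic peptide genes both rose. Nppa encodes the precursor of atrial natriuretic peptide and was the gene with the most counts among the 10, from 3699 to 4120 in Vector and from 9380 to 10782 in the libraries labelled FTO. Its levels were 271, 276 and 267 CPM in Vector and 664, 708 and 602 CPM in the libraries labelled FTO. The rise was 2.43-fold (95% CI 2.24 to 2.62), or 1.28 on the log2 scale (SE 0.0531, edgeR adjusted p = 9.3e-12). Nppb encodes the precursor of B-type natriuretic peptide, a blood marker of heart failure. It was at 19.2, 20.5 and 21.0 CPM in Vector and at 126, 145 and 115 CPM in the libraries labelled FTO. In both genes FTO replicate 2 was the highest library and FTO replicate 3 the lowest of its group, and the groups did not overlap. Nppb rose 6.34-fold (95% CI 5.60 to 7.18), or 2.66 on the log2 scale (SE 0.0838, edgeR adjusted p = 2.9e-13).

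The promoters of this pair, with the same motifs in capitals, are given for comparison with Edn1.
Nppa, chr5:163711934-163712233, plus strand: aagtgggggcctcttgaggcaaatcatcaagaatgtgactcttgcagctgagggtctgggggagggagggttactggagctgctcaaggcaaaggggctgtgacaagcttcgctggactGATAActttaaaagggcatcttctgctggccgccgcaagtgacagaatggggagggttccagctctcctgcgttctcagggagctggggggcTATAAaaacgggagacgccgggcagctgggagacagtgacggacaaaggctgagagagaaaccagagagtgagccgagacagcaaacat
Nppb, chr5:163699758-163700057, plus strand: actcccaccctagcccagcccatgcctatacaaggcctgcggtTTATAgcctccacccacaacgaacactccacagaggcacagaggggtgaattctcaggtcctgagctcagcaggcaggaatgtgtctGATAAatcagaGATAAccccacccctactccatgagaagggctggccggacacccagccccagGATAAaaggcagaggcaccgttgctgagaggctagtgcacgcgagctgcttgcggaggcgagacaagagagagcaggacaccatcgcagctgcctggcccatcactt

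The change of Nppb was larger than that of Nppa. The count ratio of Nppb to Nppa was 0.0708, 0.0740 and 0.0787 in Vector and 0.190, 0.204 and 0.191 in the libraries labelled FTO, a 2.62-fold difference, with an exact permutation p of 0.10. The pair lies side by side in the genome. In the gene order of the GRCr8 assembly, Nppb and Nppa are followed by Clcn6, a chloride transporter gene, and Plod1, a collagen lysyl hydroxylase gene, is the nearest measured gene on the other side. Clcn6 was at 46.9 ± 0.957 and 42.2 ± 2.34 CPM in Vector and in the libraries labelled FTO, a log2 fold change of -0.15 (adjusted p = 0.0442). The log2 fold change of Plod1 was 0.07 (adjusted p = 0.156). Clcn6 thus passed as slightly lower and Plod1 did not pass, and both were looked up after the values of Nppa and Nppb were known.

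Npr3 encodes the clearance receptor, which binds natriuretic peptides and removes them without forming cyclic GMP. Its levels were 17.3, 15.4 and 14.1 CPM in Vector and 51.9, 45.2 and 50.3 CPM in the libraries labelled FTO. The groups did not overlap. Npr3 rose 3.15-fold (95% CI 2.78 to 3.58), or 1.66 on the log2 scale (SE 0.0858, edgeR adjusted p = 1.4e-10). The count ratio of Npr3 to Nppb fell from 0.673 to 0.905 in Vector to 0.312 to 0.438 in the libraries labelled FTO (exact permutation p of 0.10), and that of Npr3 to Nppa overlapped between the groups (exact permutation p of 0.20).

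The other natriuretic peptide genes on the list used here moved less and mostly the other way. Mme, whose product degrades natriuretic peptides, was counted with the angiotensin genes instead and rose by 2.69 on the log2 scale. Of a list of 14, 10 were tested, and 2 rose, 6 fell and 2 did not pass, with a median log2 fold change of -0.34. Among all genes tested, 65.9% were called, 33.2% higher and 32.8% lower. Npr1, which encodes the signalling receptor of atrial and B-type natriuretic peptide, fell from 38.7 ± 0.742 to 28.9 ± 3.70 CPM (log2 change -0.42, SE 0.0833, edgeR adjusted p = 4.5e-04). Npr2, the receptor of C-type natriuretic peptide, rose from 68.7 ± 0.974 to 90.7 ± 4.84 CPM (log2 change 0.40, SE 0.0539, adjusted p = 1.0e-05). Of the 3 receptor genes, Npr3 and Npr2 were thus higher and Npr1 lower. The convertase gene Pcsk6 fell from 78.8 ± 3.90 to 34.7 ± 0.784 CPM (log2 change -1.18, SE 0.0594, adjusted p = 9.7e-11). Corin, the protease of heart muscle that cuts the precursor of atrial natriuretic peptide, was near the limit of the test at a mean of 11.8 counts and fell by 0.95 on the log2 scale (SE 0.377, adjusted p = 0.0373). Pde9a, a cyclic GMP phosphodiesterase gene, rose by 1.10 (SE 0.311) from 0.785 ± 0.250 to 1.72 ± 0.230 CPM, with a mean of 18.5 counts (adjusted p = 0.00592). Furin, at 0.10 (adjusted p = 0.0573), and Pde5a, at 0.06 (adjusted p = 0.753), did not pass. Nppc, the gene of C-type natriuretic peptide, had at most 2 counts in any library, and Prkg1 is not analysed here. Npr2, Furin, Pde5a and Nppc were picked out with their values known. The number of genes called on this list was 5 without Vector replicate 2 and 5 without FTO replicate 1, against 8 with all libraries.

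Downstream of the type 1 angiotensin receptor and the endothelin receptors, Gq activates phospholipase C-beta, and proteins of the Rgs family switch Gq off. Of 18 listed genes of this signalling, 17 were tested, and 5 rose, 7 fell and 5 did not pass, with a median log2 fold change of -0.04. The share called, 12 of 17, was near that of all genes. Rgs2, an inhibitor of Gq, rose from 23.8 ± 1.23 to 205 ± 10.4 CPM (log2 change 3.11, SE 0.0599, adjusted p = 8.5e-16 by edgeR). Rgs4 rose from 8.68 ± 1.57 to 17.9 ± 1.93 CPM (log2 change 1.05, SE 0.129, adjusted p = 3.9e-06). Plcb3, a phospholipase C-beta gene, fell from 126 ± 2.86 to 61.6 ± 1.35 CPM (log2 change -1.03, SE 0.0484, adjusted p = 4.2e-11). The other phospholipase C-beta genes differed from Plcb3, with Plcb1 higher (0.93, adjusted p = 3.7e-04) and Plcb4 not past the test (0.06, adjusted p = 0.255). Among the 4 genes of G protein subunits on the list, Gnaq (-0.71, adjusted p = 1.5e-04) and Gna11 (-0.54, adjusted p = 1.1e-05) were lower, Gna12 was higher (0.15, adjusted p = 0.00841) and Gna13 did not pass (-0.07, adjusted p = 0.197). These 4 genes, Plcb1 and Plcb4 were picked out with their values known.

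Among all 12941 genes tested, 97.7% had a lower log2 fold change than Ednrb, 96.9% a lower one than Nppb and 1.68% a lower one than Edn1. These genes are thus toward the ends of the distribution, but not at its extremes. The genes with a mean of at least 100 counts whose profile over the 6 libraries was closest to that of Ednrb were Isyna1 (root mean square difference of 0.0497 in log2 CPM relative to the Vector mean), Enpp3 (0.0830) and Gcgr (0.100). Those closest to Nppb were Egln3 (0.0428), Uap1 (0.0812) and Plscr1 (0.0829). With 2 groups of 3 libraries, this measure compares mostly the fold changes.

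**Figure D4:**
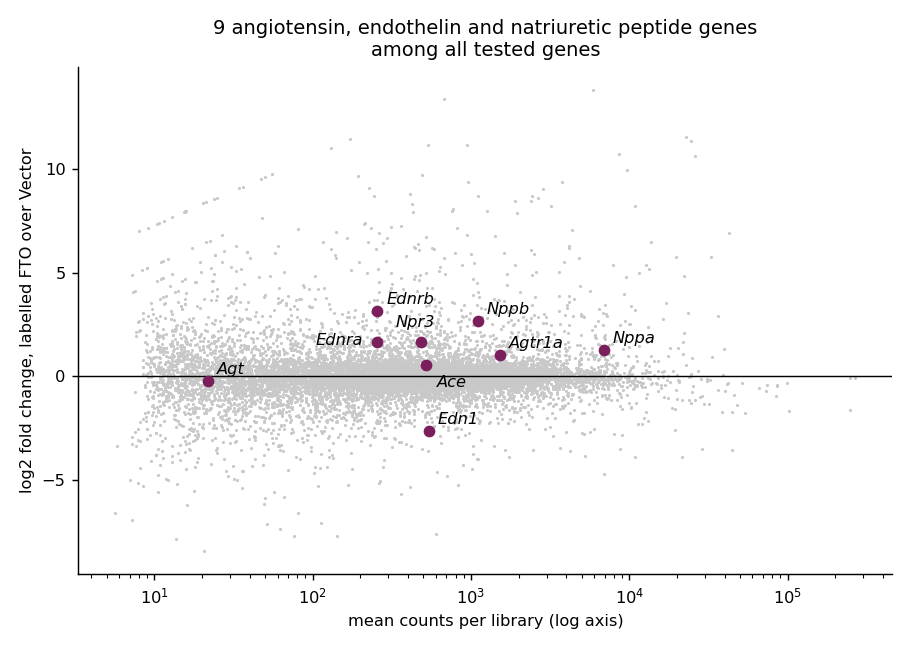
Log2 fold change (vertical axis) against the mean counts per library (horizontal log axis) for all 12941 tested genes in grey and 9 genes of the hormone systems in purple. Ednrb and Nppb stand above and Edn1 below most genes of similar counts, and Agt, at a mean of 21.8 counts, lies near 0.

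Nppa and Nppb are genes of heart muscle cells, and Edn1 and Ednrb are also expressed by endothelium, so markers of these cells were measured beside them. Of 11 cardiomyocyte markers tested, 10 rose and 1 (Tnnt2) fell, with a median log2 fold change of 1.16. Over all genes tested, 33.2% passed as higher and 32.8% as lower, shares to be set beside each marker list here. Their summed level was 1341 to 1366 CPM in Vector and 1862 to 1894 CPM in the libraries labelled FTO, and none was at 0. Tnnt2 held much of that sum, and without it the sum was 572 to 589 CPM in Vector and 1191 to 1266 CPM in the libraries labelled FTO, so that the group means differed 2.11-fold in place of 1.39-fold. Of the 11, 4 had a larger log2 fold change than Nppa and 0 a larger one than Nppb. Of 10 endothelial markers, 7 were tested, with 4 higher, 2 lower and 1 not past the threshold. Their summed level was 126 to 133 CPM in Vector and 121 to 126 CPM in the libraries labelled FTO. Most of it was Flt1, and without Flt1 the sum was 33.7 to 36.4 CPM in Vector and 57.7 to 62.2 CPM in the libraries labelled FTO. Cdh5 (1.59), Kdr (2.13), Tek (1.16) and Egfl7 (0.95) rose on the log2 scale, Flt1 (-0.57) and Esam (-0.89) fell, Cldn5 was at 0 in each library and Emcn was at 0 in each Vector library. Of 9 mural and smooth muscle markers, 3 rose and 6 fell, with sums of 2182 to 2253 and 1385 to 1468 CPM. Of 10 macrophage markers, 1 rose and 9 fell, with sums of 702 to 722 and 209 to 234 CPM. Of 6 epicardial and mesothelial markers tested, 4 rose and 1 fell, with sums of 37.7 to 37.9 and 137 to 154 CPM. Most of the rise of that sum was Msln, with group means of 2.83 and 87.1 CPM. Of the 10 fibroblast markers, 5 rose and 5 fell, with sums of 41419 to 42004 and 21577 to 22559 CPM. Col1a1 and Col3a1, both lower, held most of that sum, and without them it was 5152 to 5376 and 10413 to 10772 CPM. Without Dcn as well, which rose by 6.90 on the log2 scale, it was 5106 to 5328 and 4911 to 5093 CPM. The markers named in this account, and the sums without some of them, were picked out with their values known. The part of these cell types in the changes above was not tested.

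**Figure D5:**
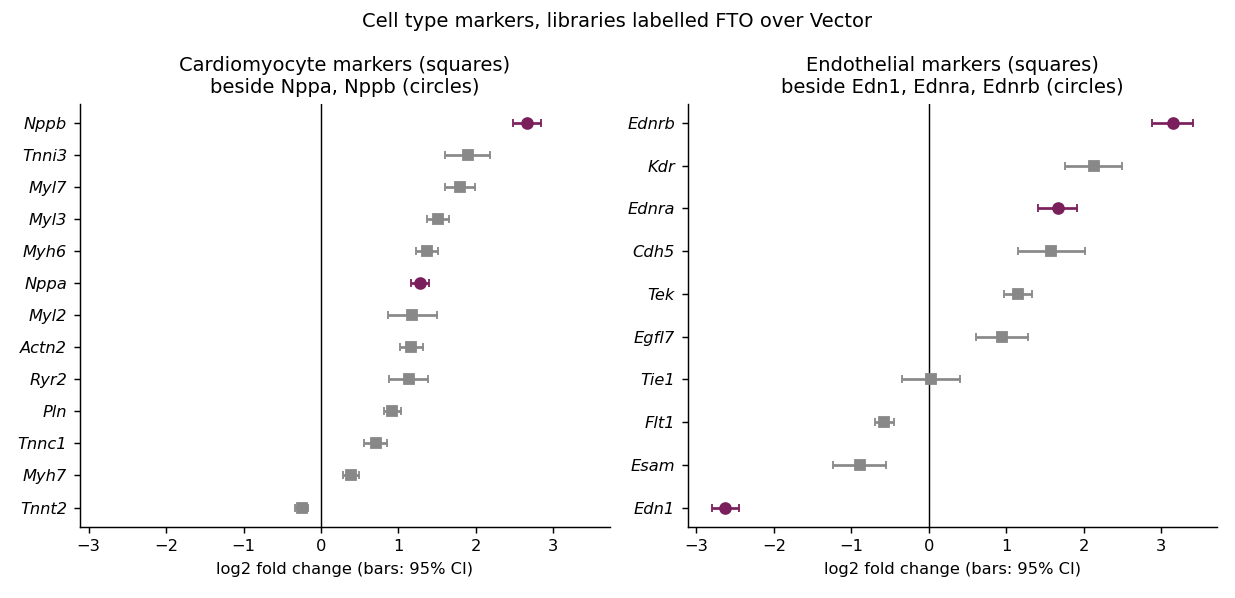
Log2 fold change with 95% confidence intervals of the tested cardiomyocyte markers beside Nppa and Nppb, and of the tested endothelial markers beside Edn1, Ednra and Ednrb. Nppa lies within the range of the cardiomyocyte markers and Nppb above it, while Edn1 lies below each of the 7 endothelial markers and Ednrb above them.

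In the promoters printed above and those of the other genes, short motifs were searched on both strands. A promoter was held in the table for 9 of the 10 genes, all but Agt. GATAA was found in 3 of the 9 on either strand, against 26.5% of the 33469 promoters of the same length. These were Nppb with 3 matches, starting 120, 109 and 57 bases before the start, Nppa with 1 match at 131 bases and Edn1 with 1 match on the opposite strand at 214 bases. The motif is thus present in the gene that fell and in both peptide genes that rose. TATAA was found in 6 of the 9, against 26.2% of all promoters. It lay 37 to 45 bases before the start in Agtr1a, Agtr2, Ace and Nppa, but 110 bases before it in Edn1 and 207 bases before it, on the opposite strand, in Nppb. ACGTG was found only in Edn1, 201 bases before the start on the opposite strand, against 19.3% of all. GGAATG, the core bound by TEAD factors, was found in Nppb only, against 14.2%, and TTCNNNGAA, bound by STAT factors, in Npr3 only, against 8.87%. TGANTCA, bound by AP-1, and the NF-κB motif were found in none of the 9, against 7.33% and 7.51%. None of these matches overlapped another motif, apart from the TATAA matches on both strands of Ace. A match describes the letters in this window and does not show that a factor was bound. The lack of an exact match does not show that sites with similar letters, or binding, were absent.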

How the data were processed

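RNA-seq was performed on total RNA from 6 NRCF samples, 3 Vector and 3 labelled FTO, grouped by genotype label. The authors deposited raw counts per gene symbol, 1 file per library. The submitters' processing notes name Trimmomatic and the build rn6. The aligner, counting program, annotation, strand setting and treatment of multi-mapping reads are not given in the sources used here.

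From the counts, genes were kept with filterByExpr (minimum count 10), TMM factors scaled the libraries, and groups were compared over all 12941 genes by the two-sided quasi-likelihood test of edgeR 4.0.16 in R 4.3.3, without covariates. P-values were adjusted by Benjamini-Hochberg over all genes. SEs were derived from the fold change and F statistic. CPM are TMM-normalized. Counts of 3 or fewer were treated as the floor, and floors and intervals cover counting error and replicate spread only. Alternatives used DESeq2 1.42.0, limma-voom (limma 3.58.1), other scalings and filters, the replicate number as a block, and each library left out. The steps were tested on simulated counts with 200 changed genes, of which 195 were tested and 178 recovered, with 8 false calls. Far fewer genes changed there than were called in these data, so the simulation does not test the scaling or error rate in that setting.

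The genes and lists were chosen with earlier results of these data known. Named were the 10 genes, Fto, Agtr1b, Npr1 and Ece1, in each related list the 3 called genes with the largest absolute log2 fold change, and the 3 closest profiles to the 2 tested genes with the largest change (profiles on CPM + 0.5). Genes named outside this rule are marked as such. Prkg1 and Ttn are not analysed here. Some genes counted on the lists are not reported here by name.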

Additional observations from a re-analysis of the deposited data

How the results depend on the processing

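The 8 calls among the 9 tested genes held under each of the 13 alternatives, and no log2 fold change of these 9 changed sign. The ranges were -2.74 to -2.57 for Edn1, 3.05 to 3.23 for Ednrb, 1.55 to 1.77 for Ednra, 2.57 to 2.74 for Nppb, 1.22 to 1.34 for Nppa, 1.59 to 1.73 for Npr3, 0.93 to 1.05 for Agtr1a, 0.47 to 0.64 for Ace and -0.30 to -0.10 for Agt, whose adjusted p-value ran from 0.411 to 0.801. The number past the threshold of the study was 6 or 7, and 6 where Agtr1a slipped under a 2-fold change (without Vector replicate 1, without Vector replicate 2, without FTO replicate 1). Among the other natriuretic peptide genes, the number called ran from 5 (without Vector replicate 2, or without FTO replicate 1) to 7 when single libraries were left out and was 6 to 9 otherwise, and the cause was not tested. The number of all genes called was 7795 to 9009. No pairing by replicate number was seen. Deviations from the group means correlated at 0.00352, -0.0789 and 0.0346 for equal numbers and at -0.115 to 0.109 for unequal ones. With so few libraries, such correlations cannot exclude a pairing. With the replicate block, 8399 genes, 8 of the 9 tested genes and 6 of the other natriuretic peptide genes were called. Depth limits Agt, Agtr2, Corin and Pde9a.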
